A study of Mus musculus with 27 samples.

Results

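Single-nucleus RNA-seq of mouse hippocampus was used to describe 8 serotonin receptor genes, Htr1a, Htr1b, Htr1f, Htr2a, Htr2c, Htr3a, Htr4 and Htr7, which are 8 of the 31053 genes listed for every library. They were taken by gene symbol alone, and all 8 had UMIs. The 27 libraries came from 27 mice, and the labels place these in 6 genotype groups. Of the mice without the tau transgene, 5 were Cgas+/+ (3 of them male), 2 were Cgas+/- and 2 Cgas-/-, all 4 of the latter male. With it there were 6 P301S Cgas+/+, 6 P301S Cgas+/- and 6 P301S Cgas-/- mice, each with 3 males and 3 females. Cgas encodes a sensor of cytosolic DNA, and +/+, +/- and -/- stand for 2, 1 and 0 working copies, lost in all cells and not in 1 cell type. P301S mice carry human tau with a dementia-linked mutation under the mouse Prnp promoter, which drives it in neurons and at lower levels in other brain cells. The study crossed both lines and used littermates, froze the hippocampi and sorted DAPI-stained nuclei. The labels give no age.

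Serotonin reaches the hippocampus and cortex through axons from the raphe nuclei of the brainstem, and the receptor that a neuron carries sets how it responds. Receptors of the Htr1 family couple to Gi proteins, which lower cyclic AMP and open potassium channels. Those of the Htr2 family couple to Gq and phospholipase C, and Htr4 and Htr7 couple to Gs and raise cyclic AMP. Htr3a encodes a subunit of the only serotonin-gated ion channel and is a known marker of a set of cortical and hippocampal interneurons. Htr2c is best known in the choroid plexus, the epithelium that makes cerebrospinal fluid.

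Each library held between 46091490 and 79484316 UMIs. After filtering, 204852 nuclei remained, 5840 to 12572 per library. Of 234470 distinct barcode sequences 7324 occurred in more than 1 library, and no pair of libraries shared more than 48 (0.570% of the smaller one). Nuclei were clustered with no Htr gene among the genes used, and classes were named from marker lists, so every class name is read as "-like". Hippocampal markers were present, with 19884 dentate granule-like, 12971 CA1-like, 3859 CA3-like and 343 CA2-like nuclei, but the libraries labelled hippocampus also held 30928 cortical-like nuclei and 3688 striatal projection neuron-like nuclei, of which 54.1% came from 1 library. The targeted gene did not fall in step with the number of copies in the labels. In microglia-like nuclei Cgas (listed as Mb21d1) stood at 35.4 ± 2.41 CPM (the usual counts-per-total unit of UMIs, scaled to the same total in every mouse and class) in the libraries labelled Cgas+/+ (SD, n = 5), at 19.1 ± 4.58 in those labelled Cgas+/- and at 27.3 ± 8.14 in those labelled Cgas-/- (n = 2 each). With the transgene it was 38.0 ± 11.7 in P301S Cgas+/+, 42.7 ± 11.2 in P301S Cgas+/- and 51.4 ± 7.03 in P301S Cgas-/- libraries (n = 6 each), so it was lower in the libraries labelled with fewer copies among mice without the transgene and higher among those with it, on 16 to 245 UMIs per group. Counting of pre-mRNA reads keeps reads from outside a deleted part, and where the deletion lies in the gene was not examined, so every genotype direction below rests on the labels. The matrix headers name Cell Ranger 3.0.2 for 12 libraries, all from males, and 3.1.0 for 15, and the 2 versions are compared where a result touches them.

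The 8 genes differ widely in length, which matters because nuclear reads fall mostly in introns. In GRCm38, the assembly behind mm10, Htr1a (ENSMUSG00000021721) is a single exon on chromosome 13, 105443639 to 105448122, on the plus strand. Htr1b (ENSMUSG00000049511) covers chromosome 9, 81628291 to 81633828, on the minus strand, with D430036J16Rik on the opposite strand. Htr3a (ENSMUSG00000032269) covers chromosome 9, 48899213 to 48911099, on the minus strand. The other 5 are longer and lie almost wholly in introns. Htr1f (ENSMUSG00000050783) lies on chromosome 16, 64924729 to 65105854, minus strand. Htr2a (ENSMUSG00000034997) lies on chromosome 14, 74640840 to 74709494, plus strand. Htr2c (ENSMUSG00000041380) lies on chromosome X, 146962513 to 147197277, plus strand, and holds several microRNA genes in its introns. Htr4 (ENSMUSG00000026322) lies on chromosome 18, 62324204 to 62496577, plus strand. Htr7 (ENSMUSG00000024798) lies on chromosome 19, 35958734 to 36057507, minus strand. Between genes, levels are therefore set side by side only as CPM per kb of gene span. On that scale each gene was taken in its leading class. This leaves out choroid plexus-like, subiculum-like, CA2-like and striatal projection-like nuclei, where Htr2c, Htr1f, Htr7 and Htr1b had their highest means, so the order holds for leading classes only. Among these Htr3a was the highest, at 4.03 in Cck-like interneurons, followed by Htr4 at 2.31 in dentate granule-like nuclei. Htr2a came next at 1.94 in Lamp5-like interneurons, then Htr2c at 1.69 in Cck-like interneurons. Htr1f stood at 1.44 in cortical-like nuclei, Htr1b at 1.07 in CA1-like nuclei, Htr7 at 0.843 in Sst-like interneurons and Htr1a at 0.582 in CA1-like nuclei. These classes are each gene's leading class, the one with the highest mean among the classes with at least 20 nuclei in at least 4 mice of each of the 4 larger groups. Levels from here on are CPM of the UMIs summed per mouse and class, as mean ± SD over the mice with at least 20 such nuclei, and compare 1 gene across classes.

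**Figure D1:**
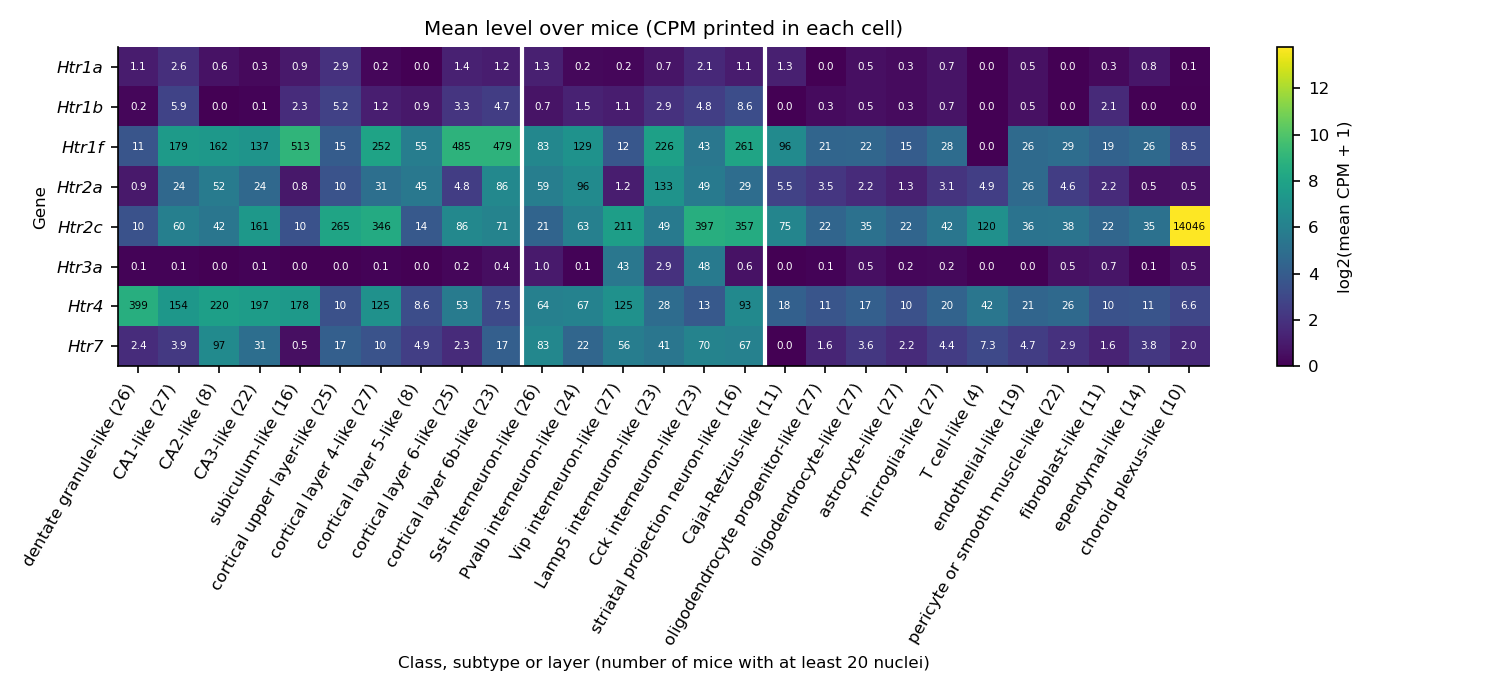
Heat map of the level of each of the 8 genes (y axis) in each marker-named class, subtype or cortical layer (x axis, with the number of mice), as the mean CPM over mice printed in each field and coloured as log2(mean CPM + 1). Htr2c in choroid plexus-like nuclei (14046 CPM) is the brightest field, Htr4 is highest in dentate granule-like nuclei (399), Htr1f in subiculum-like (513), Htr2a in Lamp5-like (133), Htr3a in Cck-like (47.8) and Vip-like (42.9), and Htr7 in CA2-like (97.3) and Sst-like nuclei (83.3).

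Of the Gi-coupled receptors, Htr1a and Htr1b are short genes with few UMIs and Htr1f is a long gene with many, so their CPM are not set against each other. Htr1a, the receptor targeted by buspirone, had few UMIs in any class. In CA1-like nuclei it stood at 2.61 ± 1.01 CPM (0.935 to 5.10, n = 27), with a UMI in 2.51% of nuclei. The level was 2.89 ± 2.51 in cortical upper layer-like nuclei (n = 25), 2.05 ± 2.55 in Cck-like interneurons (n = 23) and 0.477 ± 0.555 in oligodendrocyte-like nuclei (n = 27). CA1-like and Cck-like levels differed by 0.421 ± 2.79 within mice, less than the spread. Htr1b, which encodes a receptor of axon terminals, led in striatal projection-like neurons at 8.60 ± 5.87 CPM (n = 16) and in CA1-like nuclei at 5.94 ± 3.56 (1.93 to 20.4, n = 27). Cck-like interneurons followed with a mean of 4.83. Within mice striatal projection-like exceeded CA1-like levels by 2.14 ± 7.08 (n = 16), and CA1-like exceeded Cck-like levels by 0.405 ± 5.62 (n = 23), both within the spread. The subiculum-like mean was 2.31. Dentate granule-like and CA3-like nuclei were far below CA1-like ones, with 0.166 ± 0.225 (n = 26) and 0.101 ± 0.229 (n = 22). These 2 values are no higher than the 0.487 ± 0.342 in oligodendrocyte-like nuclei and were read as background. Within the cortical-like nuclei Htr1b was highest in a small layer 6-like subcluster of 852 nuclei led by Aox3 and Arhgap6, at 15.1 ± 8.18 CPM (n = 18), and was 0.769 ± 1.01 in the layer 6-like subcluster led by Syt6 and Foxp2 (n = 16).

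Htr1f, whose receptor is the target of the migraine drug lasmiditan, was the Gi-coupled receptor with the most UMIs. It reached 513 ± 126 CPM in subiculum-like nuclei (307 to 776, n = 16), 485 ± 71.0 in cortical layer 6-like nuclei (n = 25) and 479 ± 174 in layer 6b-like nuclei (n = 23). Upper layer-like nuclei of the same cortical class stood at 15.02 ± 7.93 (n = 25), which is near the 22.2 ± 6.87 of oligodendrocyte-like nuclei. Layer 4-like nuclei lay between, at 252 ± 92.4 (n = 27). In the hippocampus proper the levels were 179 ± 80.3 in CA1-like (48.0 to 335, n = 27), 162 ± 29.1 in CA2-like (n = 8) and 137 ± 46.3 in CA3-like nuclei (n = 22), against 11.4 ± 3.69 in dentate granule-like nuclei (n = 26). Among the named interneuron types Htr1f was highest in Lamp5-like nuclei at 226 ± 95.7 (n = 23), followed by Pvalb-like at 129 ± 47.3 (n = 24). It was lowest in Vip-like nuclei at 12.3 ± 5.55 (n = 27). Interneuron subclusters of 292 and 349 nuclei, closest by markers to Pvalb-like ones but left unnamed, had more. Their levels were 586 and 557 CPM over pooled nuclei, against 272 in a Lamp5-like subcluster of 804 nuclei. Within mice, subiculum-like exceeded striatal projection-like nuclei by 212 ± 152 CPM (higher in 6 of 8 mice). The CA1-like and CA2-like levels differed by 16.3 ± 83.3 (n = 8), within the spread.

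The Gq-coupled pair led in different classes, and their levels over 25 classes and subtypes were almost uncorrelated (Pearson's r = 0.060). Htr2a, the receptor through which classical psychedelics act, was highest in interneurons. It stood at 133 ± 36.1 CPM in Lamp5-like (77.6 to 214, n = 23), 96.4 ± 27.9 in Pvalb-like (n = 24), 58.5 ± 17.8 in Sst-like (n = 26) and 48.8 ± 15.1 in Cck-like interneurons (n = 23). Vip-like interneurons were the exception at 1.15 ± 1.95 (n = 27), below oligodendrocyte-like nuclei at 2.25 ± 0.861. This order holds for named types only. A subcluster of 358 interneurons, closest by markers to Sst-like ones but left unnamed, had 161 CPM over pooled nuclei. The Lamp5-like subcluster of 804 nuclei had 154 on the same measure. The Lamp5-like value also leaves out an unnamed subcluster of 1067 interneurons led by Sv2c and Lamp5. Lamp5-like exceeded Pvalb-like levels by 35.4 ± 29.2 within mice (21 of 22 mice), and Pvalb-like levels exceeded the mean of all interneurons by 26.3 ± 18.8 (23 of 24 mice). Among hippocampal excitatory nuclei CA2-like ones stood at 51.6 ± 32.5 (n = 8), level with Cck-like interneurons, and the others were lower, with 23.8 ± 8.85 in CA1-like (n = 27), 23.9 ± 20.7 in CA3-like (n = 22) and 0.887 ± 0.624 in dentate granule-like nuclei (n = 26). Layer 6b-like nuclei were the highest cortical type at 86.4 ± 48.7 (n = 23), while the layer 6-like nuclei next to them in name had 4.76 ± 4.64 (n = 25). In endothelial-like nuclei the mean was 26.4 ± 33.8 (n = 19) on 40 UMIs in all, with a range of 0 to 154.

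Htr2c was by far highest in choroid plexus-like nuclei, at 14046 ± 2353 CPM (10594 to 17444, n = 10 mice), and 99.8% of those 2571 nuclei had a UMI. Among whole neuronal classes and subtypes it was highest in Cck-like interneurons at 397 ± 122 (190 to 728, n = 23) and striatal projection-like neurons at 357 ± 180 (n = 16), which differed by -2.34 ± 216 within mice. Vip-like interneurons followed at 211 ± 61.6 (n = 27), whereas Pvalb-like had 63.2 ± 35.5 (n = 24) and Sst-like 21.0 ± 12.1 (n = 26). The cortical-like mean of 170 ± 98.4 (n = 27) and the CA3-like mean of 161 ± 115 (n = 22) both varied widely between mice, and both classes were mixtures, as given below. In CA1-like nuclei the level was 59.95 ± 32.4 (n = 27). Dentate granule-like nuclei, at 10.3 ± 6.36 (n = 26), were below astrocyte-like (21.8 ± 16.7), oligodendrocyte-like (34.8 ± 25.7) and microglia-like nuclei (42.0 ± 31.8, n = 27 each) and were read as background.

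Htr3a, the ion channel subunit, was nearly confined to 2 of the interneuron types examined. It stood at 47.8 ± 14.8 CPM in Cck-like (24.5 to 81.4, n = 23) and 42.9 ± 15.7 in Vip-like interneurons (5.53 to 74.5, n = 27). The difference between these was 3.61 ± 22.3 within mice, positive in 15 of 23. Lamp5-like interneurons followed at 2.89 ± 3.72 (n = 23), and each remaining class or subtype, the pooled interneurons aside, had a mean below 1 CPM. Vip-like levels exceeded the mean of all interneurons by 31.5 ± 14.1 in 27 of 27 mice.

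Htr4, the Gs-coupled receptor targeted by prucalopride, was highest in the dentate gyrus among the classes and subtypes, although a CA3-like subcluster described below reached more. Its level in dentate granule-like nuclei was 399 ± 54.6 CPM (317 to 511, n = 26), the smallest SD relative to its mean among the leading classes of the 8 genes. It exceeded the CA2-like level of 220 ± 83.6 by 191 ± 111 in all 8 mice with both. CA3-like nuclei had 197 ± 121 (n = 22), subiculum-like 178 ± 36.1 (n = 16) and CA1-like 154 ± 28.0 (109.5 to 200.4, n = 27). Vip-like interneurons carried 125 ± 41.5 (n = 27) and Cck-like 13.2 ± 9.58 (n = 23), the reverse of the order these 2 types show for Htr2c. Htr7, the other Gs-coupled receptor, was low in dentate granule-like (2.42 ± 1.35, n = 26), CA1-like (3.88 ± 4.48, n = 27) and subiculum-like nuclei (0.487 ± 1.07, n = 16). Among whole classes and subtypes it led in CA2-like nuclei at 97.3 ± 24.1 (n = 8) and in Sst-like interneurons at 83.3 ± 22.6 (45.0 to 127, n = 26), which differed by 2.53 ± 41.0 within mice. Cck-like (69.5 ± 26.7, n = 23), Vip-like (55.7 ± 17.3, n = 27) and Lamp5-like interneurons (41.4 ± 20.4, n = 23) also carried it, and CA3-like nuclei had 31.0 ± 15.1 (n = 22). The Lamp5-like value leaves out a subcluster of 1067 interneurons led by Sv2c and Lamp5, which stayed unnamed. Htr7 stood at 146 CPM over its pooled nuclei.

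Shares of nuclei with a UMI depend on depth, so each nucleus was also thinned to 1000 UMIs. Median depth was 6034 to 11012 UMIs per mouse in dentate granule-like and 1492 to 2836 in oligodendrocyte-like nuclei, a class taken to lack these receptors. Htr4 had a UMI in 87.8% of dentate granule-like nuclei, 31.8% after thinning, against 2.98% and 1.71% in oligodendrocyte-like nuclei. Htr1f had one in 48.1% of cortical-like nuclei (18.4% thinned) against 4.08% (2.14% thinned) in oligodendrocyte-like nuclei. Htr2c had one in 59.5% of Cck-like interneurons (25.8% thinned) against 6.59% (3.498% thinned). The thinned shares were 10.1% for Htr2a in Lamp5-like against 0.235%, 7.38% for Htr7 in Sst-like against 0.343%, 3.92% for Htr3a in Cck-like against 0.0493%, 0.578% for Htr1b in CA1-like against 0.0426% and 0.185% for Htr1a in CA1-like against 0.0448% in oligodendrocyte-like nuclei. For the 3 members with the most neuronal UMIs the ratios to each other were compared over glia. Htr2c to Htr4 UMIs stood at 2.25, 2.27 and 2.25 in oligodendrocyte-like, astrocyte-like and microglia-like nuclei, and Htr1f to Htr4 UMIs at 1.36, 1.49 and 1.38, against 0.542 and 0.883 in excitatory and 1.92 and 1.96 in inhibitory nuclei. In oligodendrocyte progenitor-like nuclei they were 2.03 and 1.90, nearer to those of inhibitory nuclei, on 296 Htr4 UMIs. The levels of these 3 genes in oligodendrocyte-like, astrocyte-like and microglia-like nuclei, which kept nearly 1 ratio, were read as background. In the progenitors Htr2c, Htr1f and Htr4 had means of 21.6, 21.5 and 11.2 CPM. These were no higher than the 34.8, 22.2 and 16.8 of oligodendrocyte-like nuclei. Progenitor-like nuclei were deeper, however, with medians of 3049.5 to 5292 UMIs per mouse, so a like CPM cannot place them at background. The progenitor levels were read neither as background nor as expression.

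Both CA3-like and cortical-like nuclei split sharply by subcluster. CA3-like nuclei held a subcluster of 1086 nuclei led by 2600014E21Rik, Tns3 and St18 and another of 2621 led by Rerg, Nectin3 and Cd109. The first carried Htr2c at 664 ± 96.3 CPM (n = 13) and the second at 39.6 ± 32.4 (n = 21). Htr4 stood at 499 ± 58.6 and 139 ± 90.2, and Htr7 at 69.5 ± 18.2 and 21.7 ± 12.3. For Htr1f the order was turned, with 27.6 ± 13.8 in the first and 163 ± 39.0 in the second, while Htr2a was 18.2 ± 9.87 and 21.0 ± 21.3. The first subcluster thus held the Gq-coupled Htr2c and both Gs-coupled receptors at several times the level of the second, and the second held the Gi-coupled Htr1f.

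In cortical-like nuclei, among subclusters measured in at least 16 mice, Htr2c was highest in a layer 4-like subcluster of 2133 nuclei led by Kcnh8 and Crybg1 (512 ± 287 CPM, n = 26), an upper layer-like one of 2103 led by Otof and Tll1 (471 ± 166, n = 21) and one with no layer name led by Tacr3 and Tecta (328 ± 93.7, n = 20). The layer 4-like name of the first rests on 3 markers, none of them among its leading genes. Another layer 4-like subcluster, led by Gm20752 and Rspo1, had 43.3 ± 21.0 in P301S Cgas+/+ (n = 3) and 23.2 ± 8.09 in P301S Cgas+/- mice (n = 5). Htr2c was also high in a small layer 6-like subcluster led by Nxph1 and Hmga2 (403 ± 108, n = 9). A second upper layer-like subcluster, led by Stard8 and Otof, had 13.9 ± 8.24 (n = 17), and the layer 6-like one led by Syt6 and Foxp2 had 11.8 ± 5.58 (n = 16). Htr1f was spread otherwise. It was highest in a layer 6-like subcluster led by Dkk2 and Ror2, at 638 ± 78.0 (n = 20), and in the Syt6 and Foxp2 one, at 586 ± 119 (n = 16), and was at 10.8 ± 6.53 in the Tacr3 and Tecta one (n = 20). That last subcluster had the highest Htr7 of the cortical subclusters, 139 ± 29.2 (n = 20), next to a small one seen in only 2 mice at 136 ± 19.6. Dentate granule-like nuclei were more even, with Htr4 at 498 ± 47.4 (n = 23), 355 ± 46.4 (n = 19) and 328 ± 33.8 (n = 25) in their 3 subclusters.

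The mix of excitatory nuclei differed greatly between mice, and so did the levels of Htr4 and Htr1f taken over the whole excitatory class. Hippocampal-like subtypes made up 3.72% of the excitatory nuclei of 1 P301S Cgas+/- mouse and 93.2% of those of 1 P301S Cgas+/+ mouse. In these 2 mice the excitatory level was 32.3 and 227 CPM for Htr4, 227 and 112 for Htr1f, and 38.1 and 10.7 for Htr2a, in that order. The Htr2a value of the first mouse stood alone, since mice at 6.10% and 8.72% had 13.8 and 10.6 CPM. Htr1b (1.85 and 2.83) and Htr2c (79.96 and 45.9) did not follow the share from mouse to mouse either, with Htr2c at 105 CPM in a mouse at 13.6% and 119 in one at 87.2%. By group the hippocampal-like share was 48.4 ± 21.7% in Cgas+/+ (n = 5), 62.7 ± 28.5% in Cgas+/- and 86.3 ± 6.27% in Cgas-/- (n = 2 each), 60.3 ± 30.7% in P301S Cgas+/+, 30.9 ± 15.3% in P301S Cgas+/- and 28.9 ± 18.3% in P301S Cgas-/- mice (n = 6 each). The share thus differed between the groups compared, and its part in differences of the pooled excitatory class was not tested.

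**Figure D2:**
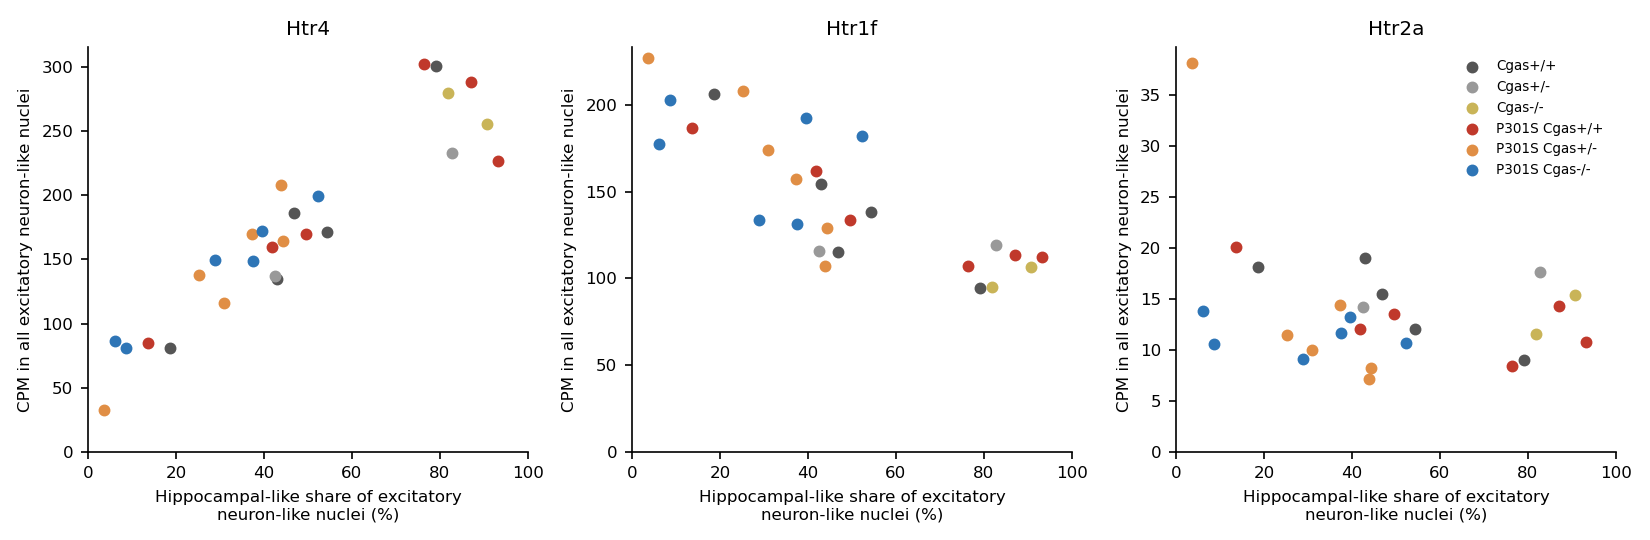
Share of hippocampal-like nuclei among excitatory neuron-like nuclei (x axis, percent) against the level of Htr4, Htr1f and Htr2a in all excitatory neuron-like nuclei (y axes, CPM), 1 point per mouse, coloured by genotype group. The mouse at 3.72% has the lowest Htr4 (32.3 CPM) and the highest Htr1f (227 CPM) and Htr2a (38.1 CPM).

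The first comparison asked whether the tau transgene changed the receptors, with P301S Cgas+/+ against Cgas+/+ mice. No member passed the test in any of the 6 classes fitted (excitatory, inhibitory, dentate granule-like, CA1-like, CA3-like and cortical-like), 0 of 36 member and class pairs by edgeR's quasi-likelihood test on counts summed per mouse, at an adjusted p under 0.05. Over all genes 0.0118% of 76062 gene and class pairs were called. Htr4 in dentate granule-like nuclei was 361, 471, 317, 336 and 374 CPM in the Cgas+/+ mice and 340.0 to 441 with a median of 382 in the P301S Cgas+/+ mice, so the groups overlapped over most of their range. The log2 fold change was 0.08 ± 0.12 (SE, 95% interval -0.18 to 0.33). Htr1a in CA1-like nuclei stood at 2.23 ± 0.748 and 2.77 ± 1.03 CPM (0.38 ± 0.36 on the log2 scale), Htr1f in cortical-like nuclei at 306 ± 64.2 and 267 ± 64.6 (-0.18 ± 0.22), Htr2c in cortical-like nuclei at 157 ± 48.5 and 248 ± 94.7 (0.58 ± 0.36), Htr3a in interneurons at 11.6 ± 4.44 and 12.1 ± 2.74 (0.19 ± 0.30) and Htr7 in interneurons at 69.5 ± 12.4 and 68.2 ± 15.9 (-0.01 ± 0.22), each with n = 5 and 6.

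For 2 member and class pairs in the tau contrast the unadjusted p was under 0.05, which is 5.56% of the 36 against 2.67% of all pairs. Htr1b in CA1-like nuclei was 2.53, 5.84, 4.35, 4.23 and 1.93 CPM in Cgas+/+ mice and 2.87 to 9.29 with a median of 6.06 in P301S Cgas+/+ mice. Its log2 fold change was 0.73 ± 0.32 (edgeR, unadjusted p = 0.0328, adjusted p = 0.9999). Within libraries of Cell Ranger 3.0.2 the difference was 0.07 (2 mice against 2) and within those of 3.1.0 it was 0.73 (4 against 3). Differences within a version, here and below, are of mean log2(CPM + 1) between mice and not fitted values. Htr2a in interneurons stood at 80.5 ± 20.5 and 63.3 ± 11.1 CPM, a log2 fold change of -0.32 ± 0.14 (edgeR, unadjusted p = 0.0290, adjusted p = 0.9999). It was 0.24 within 3.0.2 and -0.65 within 3.1.0 libraries, opposite directions, and -0.20 without Cgas+/+ replicate 3. Over the 36 pairs the median log2 fold change was 0.03. The largest were 1.12 ± 0.72 for Htr2c and 1.02 ± 0.55 for Htr4, both in CA3-like nuclei, with an unadjusted p above 0.05. Both passed the adjusted threshold in the fit without the low-count filter, where 68 of 22318 genes were called higher and 11 lower.

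**Figure D3:**
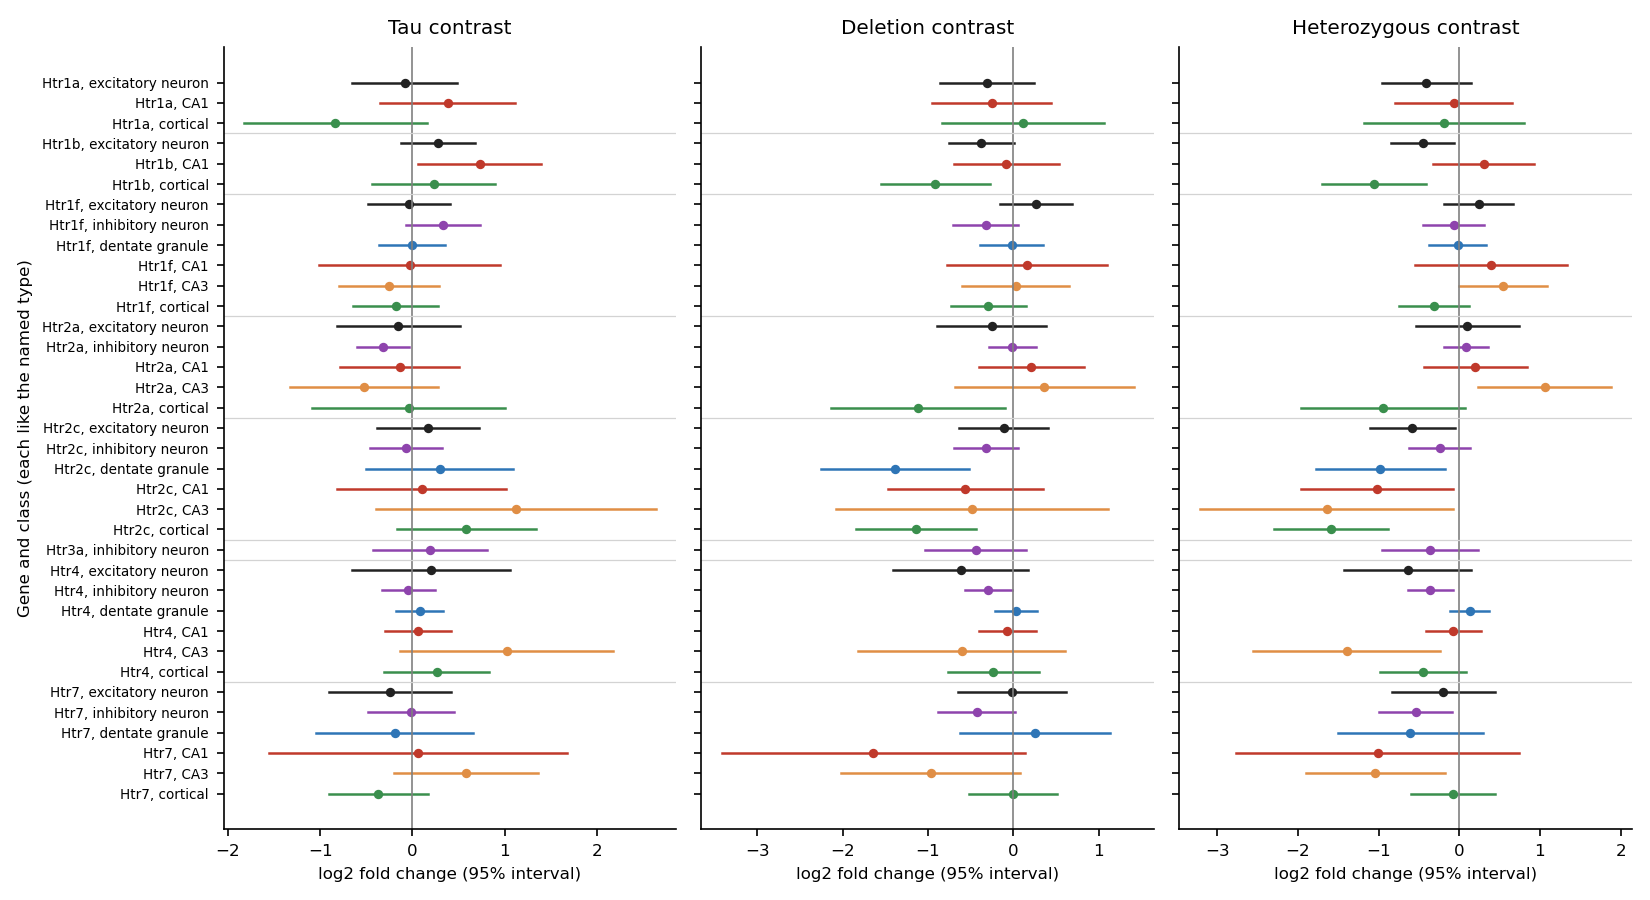
Fitted log2 fold change (x axis, points with 95% intervals as lines) of each member in each class where it was tested (y axis, coloured by class), in 3 panels for the tau, deletion and heterozygous contrasts with different x ranges. None passed the adjusted threshold, and cortical-like Htr2c lies at 0.58, -1.14 and -1.59 in the 3 panels.

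The second comparison asked what loss of Cgas did in mice with the transgene, with P301S Cgas-/- and P301S Cgas+/- each set against the same 6 P301S Cgas+/+ mice, so the 2 contrasts share those animals and are not independent of each other. Again 0 of 36 pairs passed in either. Over all genes 0.0% of 76062 pairs were called in the deletion contrast and 0.00263% in the heterozygous one. The value with the smallest p was that of Htr2c in cortical-like nuclei. It was 111 to 367 CPM with a median of 279.6 in P301S Cgas+/+ mice, 27.7 to 127 with a median of 85.5 in P301S Cgas+/- mice and 75.2 to 151 with a median of 107 in P301S Cgas-/- mice. Of the 6 P301S Cgas+/+ mice 5 lay above every mouse of the other 2 groups, and the remaining one, at 111, lay among them. The Cgas+/+ mice stood at 225, 151, 132, 97.2 and 181, the Cgas+/- mice at 205 and 234 and the Cgas-/- mice at 399.6 and 325, so the group without the transgene and without Cgas was the highest of the 6. That group and the Cgas+/- group have only libraries of version 3.0.2, and the part of the version was not tested. The log2 fold change was -1.59 ± 0.34 in the heterozygous contrast (edgeR, unadjusted p = 0.000137, adjusted p = 0.129) and -1.14 ± 0.34 in the deletion contrast (edgeR, unadjusted p = 0.00285, adjusted p = 0.892). Within Cell Ranger versions the heterozygous difference was -1.52 (2 mice against 2) and -1.67 (4 against 4), and the deletion difference -0.67 and -1.30. DESeq2 called the heterozygous value, with an adjusted p of 0.000599, and edgeR called it when P301S Cgas+/+ replicate 1 was left out, with an adjusted p of 0.0319. These fits called more genes in all, 11 higher and 71 lower of 12135 by DESeq2. Without replicate 1 edgeR called 3 higher and 28 lower of 14970.

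Other measures are given beside the cortical-like Htr2c level, and their part in the difference was not tested. The layer 4-like subcluster that carried the most Htr2c made up 15.9 ± 9.78% of the cortical-like nuclei in P301S Cgas+/+ mice, 4.35 ± 2.55% in P301S Cgas+/- and 6.28 ± 3.22% in P301S Cgas-/- (n = 6 each). Its share was 7.60 ± 1.51% in Cgas+/+ (n = 5), 10.5% in Cgas+/- and 24.8% in Cgas-/- mice (n = 2 each). Within that subcluster the level was 548 ± 211 CPM over 6 P301S Cgas+/+ mice, 274 ± 128 over 5 P301S Cgas+/- mice and 380.5 ± 171 over 6 P301S Cgas-/- mice. Without the transgene it was 469 ± 199 in Cgas+/+ (n = 5), 1050 ± 180 in Cgas+/- and 967 ± 205 in Cgas-/- mice (n = 2 each), higher in the groups labelled with fewer copies. The 2 other subclusters with high Htr2c that were measured in 20 or more mice are given for comparison. In the upper layer-like subcluster led by Otof and Tll1 it was 679 ± 199 (n = 4), 355 ± 115 (n = 5) and 441 ± 90.6 (n = 6), and in the Tacr3 and Tecta one 379.9 ± 70.7 (n = 4), 243 ± 127 (n = 4) and 292 ± 86.1 (n = 5). In these 3 subclusters P301S Cgas+/- mice had the lowest mean of the 3 groups, but not in every other one. In the largest cortical-like subcluster, led by Atp10b and Dsc3, Htr2c was 116 ± 91.3 (n = 4), 73.7 ± 25.1 (n = 5) and 57.6 ± 8.40 (n = 6) in the same order. In a layer 6-like one led by Rmst it was 176 ± 126 (n = 4), 79.3 ± 58.2 (n = 5) and 79.0 ± 46.4 (n = 6). Htr2c in oligodendrocyte-like nuclei, read above as background, stood at 45.1 ± 24.5, 23.3 ± 16.7 and 19.1 ± 8.13 CPM in the same 3 groups (n = 6 each), and choroid plexus-like nuclei made up 1.81 ± 2.15%, 0.626 ± 0.787% and 0.190 ± 0.222% of their nuclei. The cortical-like means were 248 ± 94.7, 82.7 ± 37.8 and 111 ± 30.4 CPM in these groups. In the Cgas+/+, Cgas+/- and Cgas-/- groups oligodendrocyte-like Htr2c was 44.9, 27.8 and 67.4 CPM. The choroid plexus-like share there was 1.79%, 0.187% and 2.97%, and the cortical-like mean 157, 219 and 362 CPM. Neither measure thus kept the order of the cortical-like means, within the P301S groups or without the transgene. Cortical-like nuclei made up 25.8 ± 22.3%, 50.8 ± 8.92% and 52.1 ± 11.2% of their excitatory nuclei. Without the transgene that share was 32.9 ± 15.8% in Cgas+/+ (n = 5), 22.4 ± 14.1% in Cgas+/- and 8.32 ± 6.24% in Cgas-/- mice (n = 2 each). The group with the highest cortical-like Htr2c thus had the lowest cortical-like share, and the part of this share was not tested.

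**Figure D4:**
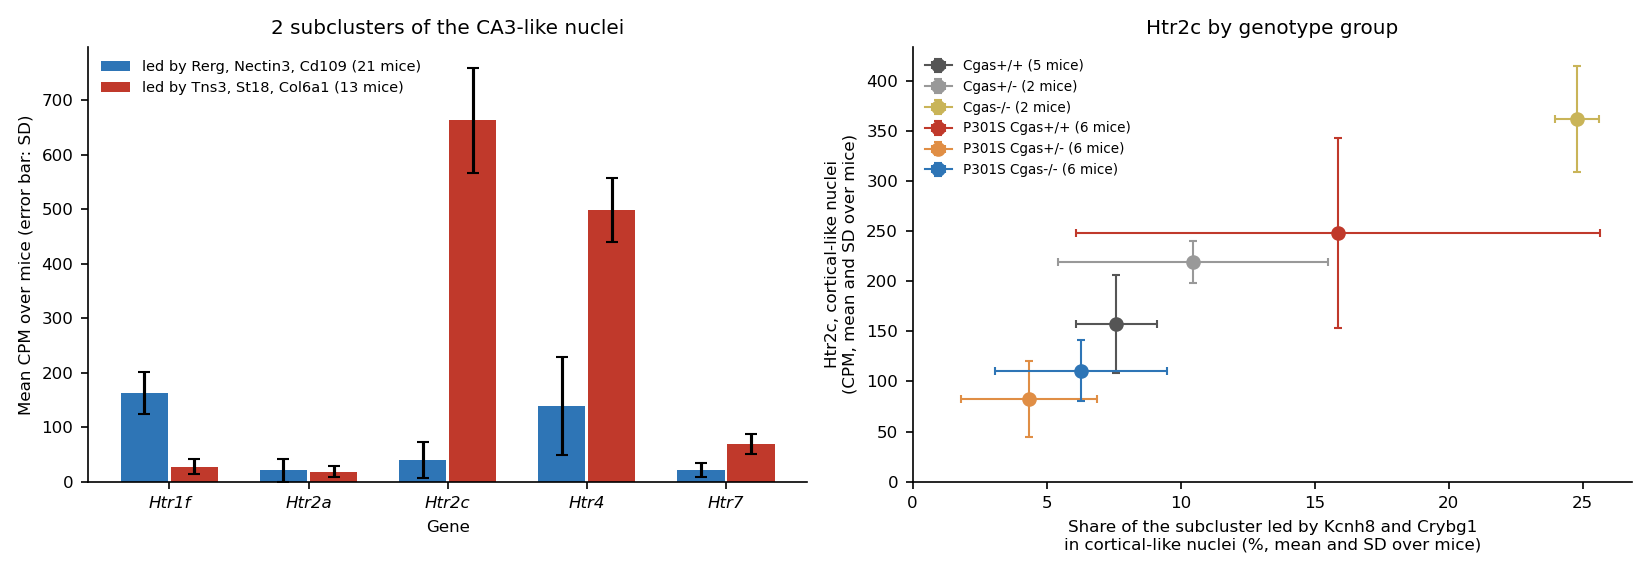
Left, mean level in CPM (y axis, bars, with SD over mice) of 5 members (x axis) in the 2 larger subclusters of CA3-like nuclei. Right, Htr2c level in cortical-like nuclei (y axis, CPM) against the share of the Kcnh8 and Crybg1 subcluster in these nuclei (x axis, percent), 1 point per genotype group with SD over mice. On the left Htr2c is at 664 and 39.6 CPM, and on the right the P301S Cgas+/- group is lowest on both axes (82.7 CPM, 4.35%) and the Cgas-/- group highest (362 CPM, 24.8%).

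Of the other members, the Gi-coupled Htr1b had low values in cortical-like nuclei in both contrasts. It stood at 0.899 to 9.68 CPM with a median of 2.95 in P301S Cgas+/+, 1.24 to 2.48 with a median of 1.82 in P301S Cgas+/- and 1.59 to 2.70 with a median of 1.76 in P301S Cgas-/- mice. The groups overlapped, and the highest value belonged to 1 mouse. The log2 fold change was -1.05 ± 0.31 in the heterozygous (edgeR, unadjusted p = 0.00243, adjusted p = 0.321) and -0.91 ± 0.31 in the deletion contrast (edgeR, unadjusted p = 0.00693, adjusted p = 0.927). Without P301S Cgas+/+ replicate 5 these were -0.70 and -0.55. Htr2a in cortical-like nuclei was 23.2 ± 14.97 CPM in P301S Cgas+/+ and 10.3 ± 4.01 in P301S Cgas-/- mice (-1.12 ± 0.49 on the log2 scale). The layer 6b-like nuclei, the highest cortical type for Htr2a, made up on average 6.55% (2.21 to 14.3%) and 3.52% (2.36 to 6.48%) of the cortical-like nuclei of these groups (n = 6 each), and their part was not tested. Htr2c in dentate granule-like nuclei, a background level by the measure above, was 13.3 ± 5.49 over 6 P301S Cgas+/+ mice, 8.09 ± 4.77 over 6 P301S Cgas+/- mice and 5.42 ± 1.81 over 5 P301S Cgas-/- mice, with log2 fold changes of -0.98 ± 0.38 and -1.39 ± 0.42. Htr4 in interneurons was 59.8 ± 7.70, 49.2 ± 9.34 and 51.2 ± 4.18 (n = 6 each), with log2 fold changes of -0.36 ± 0.14 and -0.29 ± 0.13. Htr7 in interneurons was 68.2 ± 15.9, 49.99 ± 14.1 and 53.9 ± 16.2 (n = 6 each), with -0.54 ± 0.22 and -0.43 ± 0.22.

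CA3-like nuclei gave the largest heterozygous fold changes of each of the 5 members tested there, and the shares of the 2 subclusters described above are given beside them. Htr2c had a log2 fold change of -1.64 ± 0.75, Htr4 of -1.39 ± 0.55, Htr7 of -1.04 ± 0.42 and Htr2a of 1.06 ± 0.40, these 4 with an unadjusted p under 0.05, and Htr1f one of 0.54 ± 0.27, and none passed the adjusted threshold. The Htr2c value was -2.49 without P301S Cgas+/- replicate 2, and the Htr2a value 0.41 without P301S Cgas+/- replicate 4. In that group Htr2a had a median of 22.8 and a highest value of 103 CPM, and it did not differ between the 2 subclusters beyond its spread. The subcluster rich in Htr2c, Htr4 and Htr7 made up 28.8 ± 15.2% of the CA3-like nuclei in P301S Cgas+/+ (n = 5) and 13.9 ± 16.1% in P301S Cgas+/- mice (n = 5), a difference smaller than the SD in either group, and 25.0 ± 21.7% in P301S Cgas-/- mice (n = 3). In the other, larger subcluster Htr2c was 51.3 ± 27.3 and 18.2 ± 20.5 CPM and Htr4 172 ± 125 and 88.5 ± 56.1 in P301S Cgas+/+ and P301S Cgas+/- mice (n = 5 each), where the Htr2c values lie near those of oligodendrocyte-like nuclei in the same groups (45.1 and 23.3). In the subcluster rich in Htr2c its level was 659.8 ± 144 in P301S Cgas+/+ mice (n = 4) and 772 in the 1 P301S Cgas+/- mouse measured, and Htr4 was 513 ± 90.2 and 419. CA3-like nuclei numbered 1 to 609 per mouse, under 20 in 5 of 27 mice. In the fit without the low-count filter the Htr2c, Htr4, Htr7 and Htr2a values passed the adjusted threshold, as did many other genes. Of 22318 genes tested there, 60 were called higher and 293 lower. In CA1-like nuclei Htr2c was 78.3 ± 43.8 in P301S Cgas+/+ and 36.7 ± 7.22 CPM in P301S Cgas+/- mice (-1.02 ± 0.45), beside 45.1 and 23.3 in oligodendrocyte-like and 52.3 and 32.3 in microglia-like nuclei of these groups, and in the pooled excitatory class its log2 fold change was -0.58 ± 0.25 and that of Htr1b -0.45 ± 0.19, the latter 0.14 when only hippocampal-like subtypes were summed.

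In all, 12 of 36 pairs had an unadjusted p under 0.05 in the heterozygous contrast (33.3%, 11 negative and 1 positive) and 5 of 36 in the deletion contrast (13.9%, all negative), against 6.89% and 6.18% of all gene and class pairs. Both counts include Htr2c in dentate granule-like nuclei, where its level was read as background. The median log2 fold change of the members was -0.34 and -0.27. Pairs of 1 gene in nested classes share nuclei, so these counts are a description. All 12 and all 5 kept their direction within each Cell Ranger version, although the CA3-like pairs had only 1 P301S Cgas+/+ mouse in version 3.0.2. These pairs were picked by their p in the same mice. A kept direction was therefore likely beforehand and is no separate support. Htr4 in dentate granule-like nuclei, the best measured pair, was 374 to 491 CPM with a median of 443 in P301S Cgas+/- (n = 6) and 329 to 511 with a median of 414 in P301S Cgas-/- mice (n = 5). Of the 6 P301S Cgas+/- mice 4 lay above the highest P301S Cgas+/+ mouse, which had 441, 2 of them by under 2 CPM, and 1 of the 5 P301S Cgas-/- mice did. The log2 fold change of Htr4 was 0.13 ± 0.12 (95% interval -0.11 to 0.37) and 0.03 ± 0.12 (-0.21 to 0.28). For the leading classes of the 5 members listed next every 95% interval included 0. In the order heterozygous then deletion, the log2 fold changes were -0.07 ± 0.35 and -0.25 ± 0.34 for Htr1a in CA1-like nuclei, 0.30 ± 0.30 and -0.08 ± 0.30 for Htr1b in CA1-like nuclei, -0.31 ± 0.21 and -0.29 ± 0.21 for Htr1f in cortical-like nuclei, 0.08 ± 0.13 and -0.01 ± 0.13 for Htr2a in interneurons and -0.36 ± 0.29 and -0.44 ± 0.29 for Htr3a in interneurons.

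Loss of Cgas without the transgene was compared in excitatory and inhibitory nuclei, for 2 Cgas-/- against 5 Cgas+/+ mice, where the pair of mice borrows the spread of the other groups. Of 14 member and class pairs 0 passed, and of all pairs 0.0% of 31180. Only Htr7 in excitatory nuclei had an unadjusted p under 0.05, with a log2 fold change of -1.04 ± 0.50 (edgeR, unadjusted p = 0.0483, adjusted p = 0.659). Both Cgas-/- libraries name Cell Ranger 3.0.2, as do only 2 of the 5 Cgas+/+ libraries. Within that version excitatory Htr7 was 11.3 and 12.1 CPM in Cgas-/- and 27.8 and 13.5 in Cgas+/+ mice. The Cgas+/+ mice of version 3.1.0 had 26.2, 13.6 and 29.6, and the part of the version in this Htr7 value was not tested. The hippocampal-like share given above, 86.3% in Cgas-/- against 48.4% in Cgas+/+ mice, moved with excitatory Htr7 and its part was not tested.

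Of the members 4 lead in interneuron types outside the 6 fitted classes, and these were compared by exact two-sided permutation tests over mice. Htr2a in Lamp5-like interneurons was 168 ± 34.5 CPM over 4 Cgas+/+ mice, 146 ± 43.3 over 5 P301S Cgas+/+ mice, 115 ± 22.5 over 5 P301S Cgas+/- mice and 125 ± 32.9 over 6 P301S Cgas-/- mice. Htr2c in Cck-like interneurons was 393 ± 126 (n = 5), 353 ± 132 (n = 5), 367 ± 51.5 (n = 5) and 402 ± 131 (n = 4) in the same order, and so did not show the order seen in cortical-like nuclei. Htr3a in Cck-like interneurons was 49.5 ± 15.4 (n = 5), 49.7 ± 13.8 (n = 5), 46.2 ± 13.9 (n = 5) and 44.3 ± 25.2 (n = 4). Htr7 in Sst-like interneurons was 99.8 ± 17.3 (n = 5), 89.2 ± 23.8 (n = 5), 73.3 ± 26.2 (n = 6) and 72.3 ± 22.1 (n = 6). In the 12 comparisons the smallest exact permutation p was 0.222, for Htr2a in the heterozygous contrast (a log2 difference of -0.33), and the smallest adjusted p was 0.771. Differences of effect between the sexes were tested in each leading class by exact permutation within sex, and of 24 comparisons 0 passed after adjustment. The smallest p, 0.025 (adjusted 0.51), was for Htr1b in CA1-like nuclei in the deletion contrast, where the log2 difference was -0.61 in females and 0.52 in males.

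**Figure D5:**
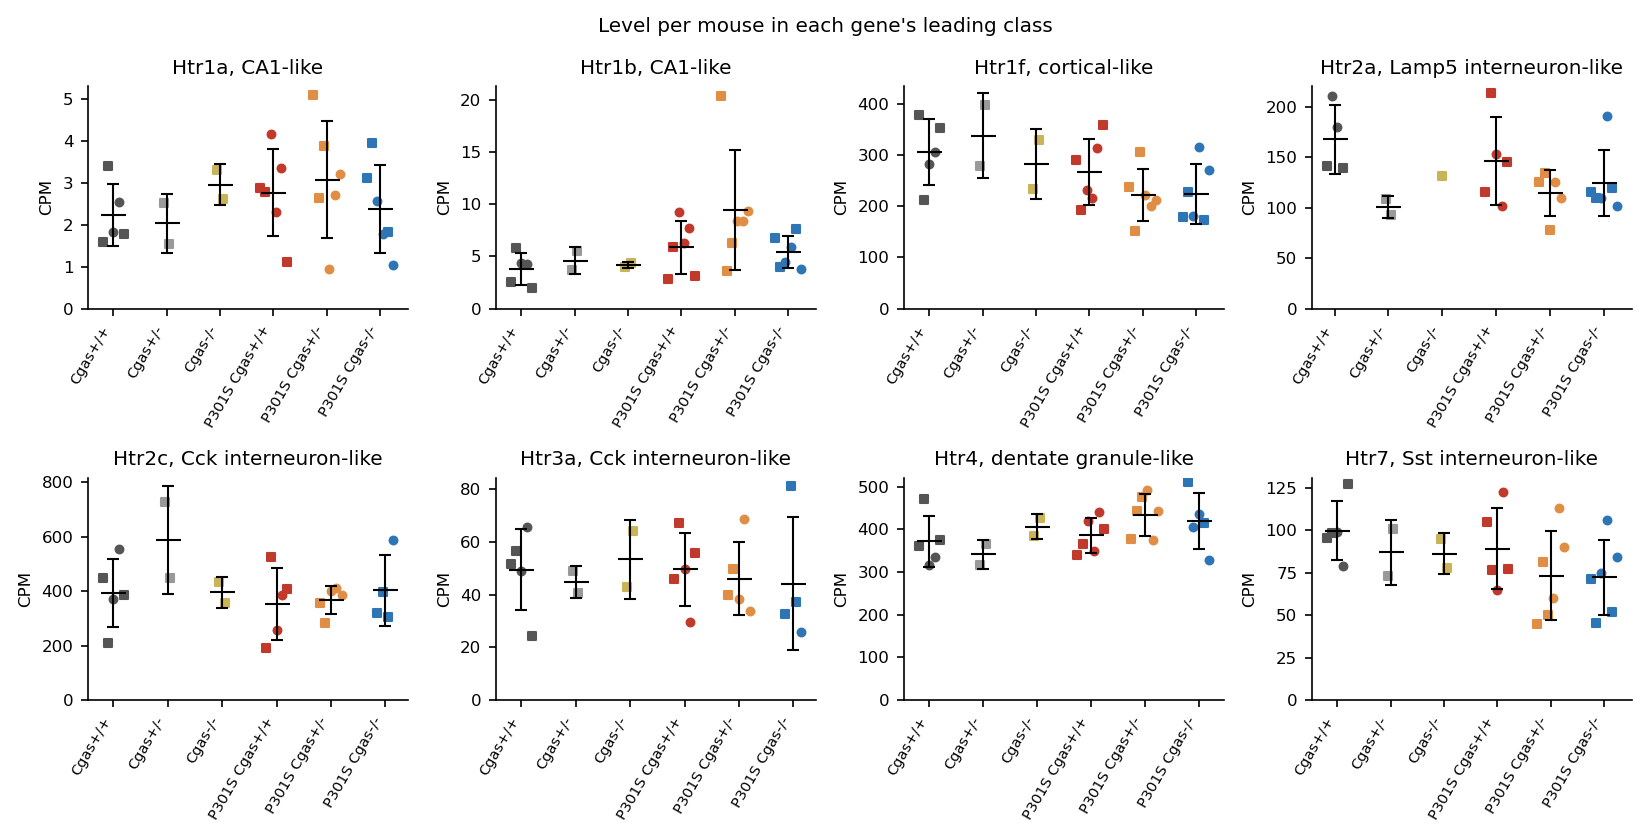
Level in CPM (y axes, from 0) of each member in its leading class for every mouse with at least 20 such nuclei, by genotype group (x axis, squares males, circles females, black dash and bar mean ± SD). The P301S Cgas+/+ mice overlap the other 2 P301S groups and the Cgas+/+ mice in every panel, and the mouse at 20.4 CPM in the Htr1b panel is P301S Cgas+/- replicate 1.

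Of the genes around the receptors, Tph2 and Slc6a4 had few UMIs. Tph2, the rate-limiting enzyme of neuronal serotonin synthesis, had 955 UMIs over all named classes, and Slc6a4, the serotonin transporter, 144. Ddc, which makes serotonin from its precursor, was highest in endothelial-like nuclei at 243 CPM, as was Maoa at 289. Maob (173) and Slc29a4, a low-affinity monoamine transporter (161), were highest in choroid plexus-like nuclei. Of the other serotonin receptors Htr5b reached 31.7 CPM in ependymal-like nuclei, Htr6 7.35 in CA3-like, Htr2b 5.49 in pericyte-like, Htr5a 4.77 in Lamp5-like and Htr1d 3.94 in striatal projection-like nuclei, and Htr3b did not exceed 1.496 in any class. Of 16 pairs of another serotonin receptor and a class (4 of 6 genes tested), 21 pairs for synthesis, transport and breakdown (7 of 9 genes) and 155 pairs for receptor coupling (28 of 28 genes), 0 were called in the tau, deletion or heterozygous contrast, beside the backgrounds above. Those with an unadjusted p under 0.05 numbered 0, 0 and 1 (6.25%), then 0, 2 (9.52%) and 4 (19.0%), then 6 (3.87%), 10 (6.45%) and 16 (10.3%) in the tau, deletion and heterozygous contrasts, against 2.67%, 6.18% and 6.89% of all pairs. In the same order of contrasts the median log2 fold change was 0.022, -0.19 and -0.035 for the other receptors, 0.094, -0.14 and -0.16 for synthesis, transport and breakdown and 0.00035, -0.012 and -0.0033 for receptor coupling. Plcb4, a phospholipase C downstream of Gq, had a log2 fold change of 1.25 ± 0.34 in excitatory nuclei in the deletion (edgeR, adjusted p = 0.204) and 1.32 ± 0.34 in the heterozygous contrast (edgeR, adjusted p = 0.193). Adcy9 in excitatory nuclei had -0.35 ± 0.12 and Slc29a4 in cortical-like nuclei -1.03 ± 0.33 in the deletion contrast. In CA3-like nuclei Prkacb, a catalytic subunit of protein kinase A, had -0.74 ± 0.22 and Adcy5 -0.91 ± 0.30 in the heterozygous contrast. In the tau contrast the smallest p belonged to Adcy5 in CA3-like (0.76 ± 0.29), S100a10 in cortical-like (1.39 ± 0.58) and Plcb4 in dentate granule-like nuclei (-0.50 ± 0.22).

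Likeness of pattern was measured as Pearson's r of log2(mean CPM + 1) over 25 classes and subtypes, among 16471 genes, as a description of points that share libraries and depth. Htr4 was most like Camk2a (r = 0.927), a kinase of excitatory neurons, and Syt13 (0.891). Htr3a was most like Tac2 (0.981), which encodes a tachykinin, and Gm39185 (0.898). Htr1b was most like D430036J16Rik (0.904), the gene on the opposite strand of its own locus, and Gm43507 (0.765). Htr2c was most like Chrnb4 (0.839), a nicotinic receptor subunit, and Kcne2 (0.821), a potassium channel subunit of choroid plexus. Htr2a was most like Elavl2 (0.820) and Brinp2 (0.796), Htr1f like Gm48749 (0.877) and Gm15810 (0.866), Htr1a like Cnih3 (0.810), an AMPA receptor auxiliary subunit, and 4930538E20Rik (0.686), and Htr7 like Gm47882 (0.805) and 4930447C04Rik (0.804). Between members the highest r was that of Htr2a and Htr7 (0.726) and the lowest that of Htr2c and Htr4 (-0.187).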

How the data were processed

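The authors deposited raw UMI counts per gene and nucleus for each of the 27 libraries, made from 10x Chromium 3' v3 libraries with Cell Ranger (3.1.0 in the processing notes, 3.0.2 or 3.1.0 in the headers), mm10 and pre-mRNA reads. The deposited counts carry no other filter. The annotation release is not given in the sources used here, and GENCODE vM21 gave positions. The 8 members, the lists and the tests were chosen with earlier results of these data known.

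The study's filter was applied, 200 to 4000 genes per nucleus and a mitochondrial share of no more than 5%. The gene maximum removed 8.28% of 241938 barcodes, and by nearest neighbours this took 49.7% of all CA2-like, 46.0% of all CA3-like, 37.4% of all subiculum-like and 3.63% of all dentate granule-like nuclei. Scrublet (scanpy 1.11.5) removed 16429 likely doublets at 0.8% per 1000 barcodes, in place of DoubletFinder. Counts were log-normalized, and 2000 variable genes without Htr genes, 30 principal components, 15 neighbours and Leiden clustering at resolution 1 gave 49 clusters. A name needed at least 3 detected markers of a fixed list. Naming thresholds were set after markers and leading genes were seen and before groups were compared. Of the kept nuclei 4.09% stayed unnamed, as did 15.6% of excitatory and 22.1% of inhibitory nuclei at the subtype step.

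Counts were summed per mouse and class. edgeR 4.0.16 (TMM, filterByExpr, robust quasi-likelihood test, sex as covariate) was fitted on 23 mice of 4 groups, each class on its own, with Benjamini-Hochberg adjustment over all genes of the class, where the study tested nuclei with MAST. The small groups entered a fit of 27 mice. DESeq2 1.42.0 was an alternative. Exact permutation tests used log2(CPM + 1) of mice with at least 20 nuclei. The steps were tested on simulated data. Each sample is 1 mouse, and SDs are over mice. Shares cover counting error only through their nuclei. Printed fold changes are those of a member's leading fitted class and those with an unadjusted p under 0.05. In CA3-like nuclei those of Htr1f (heterozygous) and of Htr2c and Htr4 (tau) were added to these. List genes are the 3 with the smallest p per contrast. All 27 libraries fit their sex label.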

Additional observations from a re-analysis of the deposited data

Results flagged for a closer look

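A single mouse stood apart from its group, by a gap to the next mouse larger than Dixon's 95% limit for the group's range, in 2 of the 32 groups of 4 to 6 mice tested over the members' leading classes. Chance marks about 1 in 20 such groups. Htr1b in CA1-like nuclei was 20.4 CPM in P301S Cgas+/- replicate 1, where the next mouse of the group had 9.39 and the other 5 a median of 8.39. That value rests on 4 UMIs in 21 nuclei, and the same mouse had the lowest hippocampal-like share of all. Htr2a in Lamp5-like interneurons was 191 CPM in P301S Cgas-/- replicate 4, where the next mouse had 119.7 and the other 5 a median of 109.95, on 22 nuclei. No explanation of either value was tested.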

How the results depend on the processing

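No member passed in the tau, deletion or heterozygous contrast as fitted. Without the low-count filter 2 pairs passed in the tau contrast (CA3-like Htr2c, 1.14, adjusted p = 0.00120, and Htr4, 1.04, adjusted p = 0.00564) and 4 in the heterozygous contrast (CA3-like Htr2a, 0.99, Htr2c, -1.68, Htr4, -1.44, and Htr7, -1.10, with adjusted p from 5.6e-09 to 0.0240). Of all 22318 genes in that CA3-like fit, 68 were called higher and 11 lower in the tau contrast. In the heterozygous contrast 60 were called higher and 293 lower. The filter changes the number of CA3 genes tested, 22318 without it, and the cause was not tested. DESeq2 called 1 pair in the heterozygous contrast (cortical-like Htr2c, -1.62, adjusted p = 0.000599). Of all 12135 cortical-like genes tested there, it called 11 higher and 71 lower. Leaving out 1 mouse at a time gave 0 to 1 in the heterozygous contrast, the 1 being cortical-like Htr2c (-1.77) without P301S Cgas+/+ replicate 1, and 0 in the tau, deletion and untransgenic contrasts. In that fit without replicate 1, 3 of 14970 cortical-like genes were called higher and 28 lower. Of 763 log2 fold changes of 38 pairs under alternatives, 728 kept direction and side, 6 passed and 29 changed sign, 28 of them in pairs with an unadjusted p of 0.05 or more and 1 in Htr1b in excitatory nuclei. Htr1b in excitatory nuclei (heterozygous) was 0.14 in hippocampal-like subtypes only. Htr7 in interneurons (tau) was 0.022 with no sex covariate, 0.026 with only the 2 groups, 0.032 with no upper gene limit, 0.0061 with the Cell Ranger version as a block, and -0.15 to 0.16 leaving out 1 mouse. Htr2a in interneurons (deletion) was 0.027, 0.017 and 0.014 under the first 3 of these and -0.080 to 0.061 leaving out 1 mouse. With no upper gene limit Htr4 in dentate granule-like nuclei (deletion) was -0.015 and Htr1b in CA1-like nuclei (deletion) 0.10, with -0.063 to 0.091 and -0.23 to 0.038 leaving out 1 mouse. Htr1a in CA1-like nuclei (heterozygous) was -0.24 to 0.19 leaving out 1 mouse. In the permutation tests Htr3a in Cck-like interneurons was -0.11 (tau) and 0.27 (heterozygous) with a minimum of 10 nuclei, and -0.20 to 0.20 and -0.27 to 0.019 leaving out 1 mouse, while Htr2c there was -0.38 to 0.027 and -0.065 to 0.30. The fits with only mice of at least 20 nuclei, and the alternatives for the Cgas deletion without P301S and for sex, were chosen after the data were seen and called nothing.

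Groups were not compared in pairs, because each library is a different mouse of 1 genotype and the sample labels used here match no mice between genotypes. The labels give no replicate numbers, and those used here follow accession order and only name the mice. Counts were low for Htr1a and Htr1b, with 336 and 758 UMIs in CA1-like nuclei, and for Htr3a, with 571 in Cck-like interneurons. CA3-like tests rest on few nuclei in 5 mice, and interneuron types were fitted only as 1 pooled class. Class names were rebuilt from markers.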
